A study of Homo sapiens with 18 samples.

Results

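TM4SF1, DNASE2B, RUNX2, FCAMR, RAB25 and ACKR3 are 6 genes whose messenger RNA was high in LNCaP control cells and at or near background in 22Rv1 control cells. They are 6 of the 19775 genes named on the array, and were listed by symbol after their levels in the 2 lines were known. They were read by 17 probe sets, each assigned to a single gene symbol. LNCaP and 22Rv1 are human prostate cancer cell lines, the first from a lymph node metastasis and the second from a xenograft. The study raised ONECUT2, a DNA-binding protein with a cut domain and a homeodomain, in both lines, and targeted it with shRNA in 22Rv1. Total RNA from 18 samples was hybridised to Affymetrix U133 Plus 2.0 arrays, 3 in each of 6 groups. The groups were LNCaP with the ONECUT2 overexpression construct, LNCaP control, 22Rv1 with that construct, 22Rv1 control, 22Rv1 with ONECUT2 shRNA and 22Rv1 with scramble shRNA. The construct carried the full-length cDNA with a tag in a lentiviral vector, and the stable lines were selected on puromycin. The control cells carry the treatment label vehicle, and no empty-vector group is named. Nothing in the labels ties the 3 arrays of a group to separate cultures, so the p-values describe scatter among arrays that could be technical. In bulk RNA, fewer cells that express a gene and less RNA per cell cannot be told apart.

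Values are log2 expression as the authors deposited them, and 4 was taken as the level under which a probe set cannot be told from background. Array medians lay between 3.26 and 3.34. Of the luminal prostate markers, 5 of the 5 that were measured exceeded 4 on all control arrays of both lines. Of the leukocyte markers, 0 of 3 exceeded 4 on any array, and of the basal markers 0 of 2. Stromal markers went the other way in part, with 2 of 4 over 4 on all 22Rv1 control arrays and 1 on all LNCaP control arrays. COL1A1, DCN and LUM exceeded 4 on some 22Rv1 array, and only COL1A1 on LNCaP arrays. Of 3 endothelial markers 0 exceeded 4 on the control arrays of either line, and VWF did so on at least 1 other LNCaP array. The gene-level ONECUT2 probe set was higher by 0.66 in LNCaP overexpression than in LNCaP control and by 0.54 in 22Rv1 overexpression than in 22Rv1 control. Over all 5 ONECUT2 probe sets, overexpression minus control ran from 0.11 to 3.68 in LNCaP and from -0.97 to 1.16 in 22Rv1. The gene-level probe set averaged 8.86 on arrays labelled ONECUT2 shRNA and 6.81 on arrays labelled scramble, so it was 2.05 higher where the label would have it lower. Over all 5 probe sets that difference ran from 0.12 to 2.05. Directions between those groups are given with their labels for that reason. Mean r with 22Rv1 control was 0.9939 to 0.9955 for arrays labelled ONECUT2 shRNA and 0.9901 to 0.9911 for those labelled scramble. The lowest correlation between arrays of a group was 0.975 in LNCaP overexpression and 0.996 or more elsewhere. In LNCaP overexpression, replicate 1 lay closest to LNCaP control (mean r = 0.969), against 0.948 for replicate 2 and 0.953 for replicate 3.

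The genes come from unrelated families, and most act at the cell surface or in membrane traffic. TM4SF1 encodes a surface protein of the L6 family with 4 membrane-spanning segments, known on endothelium and on many carcinomas. ACKR3, also called CXCR7, is an atypical chemokine receptor that binds CXCL12 and CXCL11, takes them up and signals through beta-arrestin rather than G proteins. FCAMR is a receptor for the constant parts of immunoglobulins A and M. RAB25 is a small GTPase of the RAB11 family that directs recycling endosomes in epithelial cells. DNASE2B is an acid endonuclease related to lysosomal DNase II, known in the mouse for clearing DNA from lens fibre cells. RUNX2 is a runt-domain transcription factor that binds DNA with its partner CBFB and directs bone-forming cells.

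RefSeq promoter windows, running from 250 bases before to 50 after an annotated start, were found for 5 of the 6 genes, 8 windows in all (GRCh38.p14). ACKR3 had no entry. A window is shown for each of 4 of the 5 genes that were lower in LNCaP overexpression, ACKR3 being the other, and for RAB25, which was not lower. They are given 5′ to 3′ on the strand of the gene. They were searched on both strands for ATTGAT and ATCGAT, cores bound by ONECUT proteins, and for AGAACA, a core of the sequence bound by the androgen receptor. Capitals mark matches, read on either strand.
TM4SF1, minus strand, chr3:149377600-149377899: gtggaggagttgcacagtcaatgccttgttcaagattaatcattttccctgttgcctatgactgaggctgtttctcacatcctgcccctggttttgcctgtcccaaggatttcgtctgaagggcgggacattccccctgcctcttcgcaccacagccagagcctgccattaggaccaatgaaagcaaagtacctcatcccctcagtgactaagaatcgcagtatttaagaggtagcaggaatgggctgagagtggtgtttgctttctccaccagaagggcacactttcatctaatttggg
DNASE2B, plus strand, the downstream of its starts, chr1:84408020-84408319: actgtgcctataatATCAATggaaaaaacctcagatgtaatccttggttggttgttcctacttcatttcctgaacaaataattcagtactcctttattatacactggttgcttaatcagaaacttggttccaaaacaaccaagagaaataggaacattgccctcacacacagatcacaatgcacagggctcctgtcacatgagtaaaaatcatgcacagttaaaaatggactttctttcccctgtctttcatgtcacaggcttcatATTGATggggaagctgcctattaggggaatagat
RUNX2, plus strand, the upstream of its starts, chr6:45328080-45328379: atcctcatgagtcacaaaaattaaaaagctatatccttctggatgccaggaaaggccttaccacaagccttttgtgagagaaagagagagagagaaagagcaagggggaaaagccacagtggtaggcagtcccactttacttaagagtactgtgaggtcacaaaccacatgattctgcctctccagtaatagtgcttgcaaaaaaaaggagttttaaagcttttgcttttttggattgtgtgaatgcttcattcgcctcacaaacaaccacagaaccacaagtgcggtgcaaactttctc
FCAMR, minus strand, the downstream of its starts, chr1:206967054-206967353: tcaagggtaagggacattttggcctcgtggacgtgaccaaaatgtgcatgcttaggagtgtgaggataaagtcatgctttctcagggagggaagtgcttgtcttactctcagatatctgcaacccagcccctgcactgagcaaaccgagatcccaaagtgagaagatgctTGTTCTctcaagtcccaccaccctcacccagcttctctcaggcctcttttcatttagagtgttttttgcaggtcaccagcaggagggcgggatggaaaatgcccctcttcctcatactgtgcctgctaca
RAB25, plus strand, chr1:156060910-156061209: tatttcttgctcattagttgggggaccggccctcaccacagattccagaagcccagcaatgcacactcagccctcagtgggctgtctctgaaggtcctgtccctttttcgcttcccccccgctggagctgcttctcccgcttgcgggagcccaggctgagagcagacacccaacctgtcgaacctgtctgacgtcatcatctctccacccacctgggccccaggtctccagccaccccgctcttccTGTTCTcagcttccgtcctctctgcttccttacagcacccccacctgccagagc
ATTGAT occurred in 1 of the 8 windows, with 2 matches in that of DNASE2B, against 6.26% of 35116 promoter windows of this length. ATCGAT occurred in 0 of 8, against 0.763% of all windows. AGAACA occurred in 2 of 8, those of FCAMR and RAB25, against 14.8%. The windows of TM4SF1 and RUNX2, and the upstream windows of DNASE2B and FCAMR, held none of these letters, which says only that the letters are not in those windows.

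The difference between the control cells of the 2 lines is what chose these genes, so it is given as a description. TM4SF1 read 11.17, 10.78 and 11.02 in LNCaP control, against 2.90, 2.82 and 2.72 in 22Rv1 control. The fitted difference was 8.18 ± 0.13 (standard error of the model), and like the others here its exact size rests on 22Rv1 values at background. ACKR3 read 11.25, 11.39 and 11.51 in LNCaP control, against 3.75, 3.89 and 4.03 in 22Rv1 control (fitted 7.50 ± 0.35). The chemokine receptor was the one member with a 22Rv1 control array above 4. DNASE2B read 10.25, 10.01 and 10.05 in LNCaP control, against 2.85, 2.68 and 2.74 in 22Rv1 control (fitted 7.34 ± 0.39). RAB25 read 10.82, 10.95 and 10.90 in LNCaP control, against 3.62, 3.51 and 3.54 in 22Rv1 control (fitted 7.34 ± 0.20). These 4 genes read over 10 on every LNCaP control array, and RUNX2 and FCAMR read under 10 on all 3. RUNX2 read 9.79, 8.45 and 8.76 in LNCaP control, against 2.64, 2.92 and 2.58 in 22Rv1 control (fitted 6.28 ± 0.25). FCAMR read 8.68, 8.36 and 8.65 in LNCaP control, against 2.31, 2.43 and 2.53 in 22Rv1 control (fitted 6.15 ± 0.11). All 3 LNCaP control arrays lay above all 3 of 22Rv1 control for 6 of 6 genes, as they did for 37.5% of all genes, while for 41.6% of genes all lay below. Measured against 4, LNCaP control was higher by at least 167-fold for ACKR3, 127-fold for TM4SF1, 119-fold for RAB25, 68.7-fold for DNASE2B, 32.0-fold for RUNX2 and 23.7-fold for FCAMR.

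**Figure D1:**
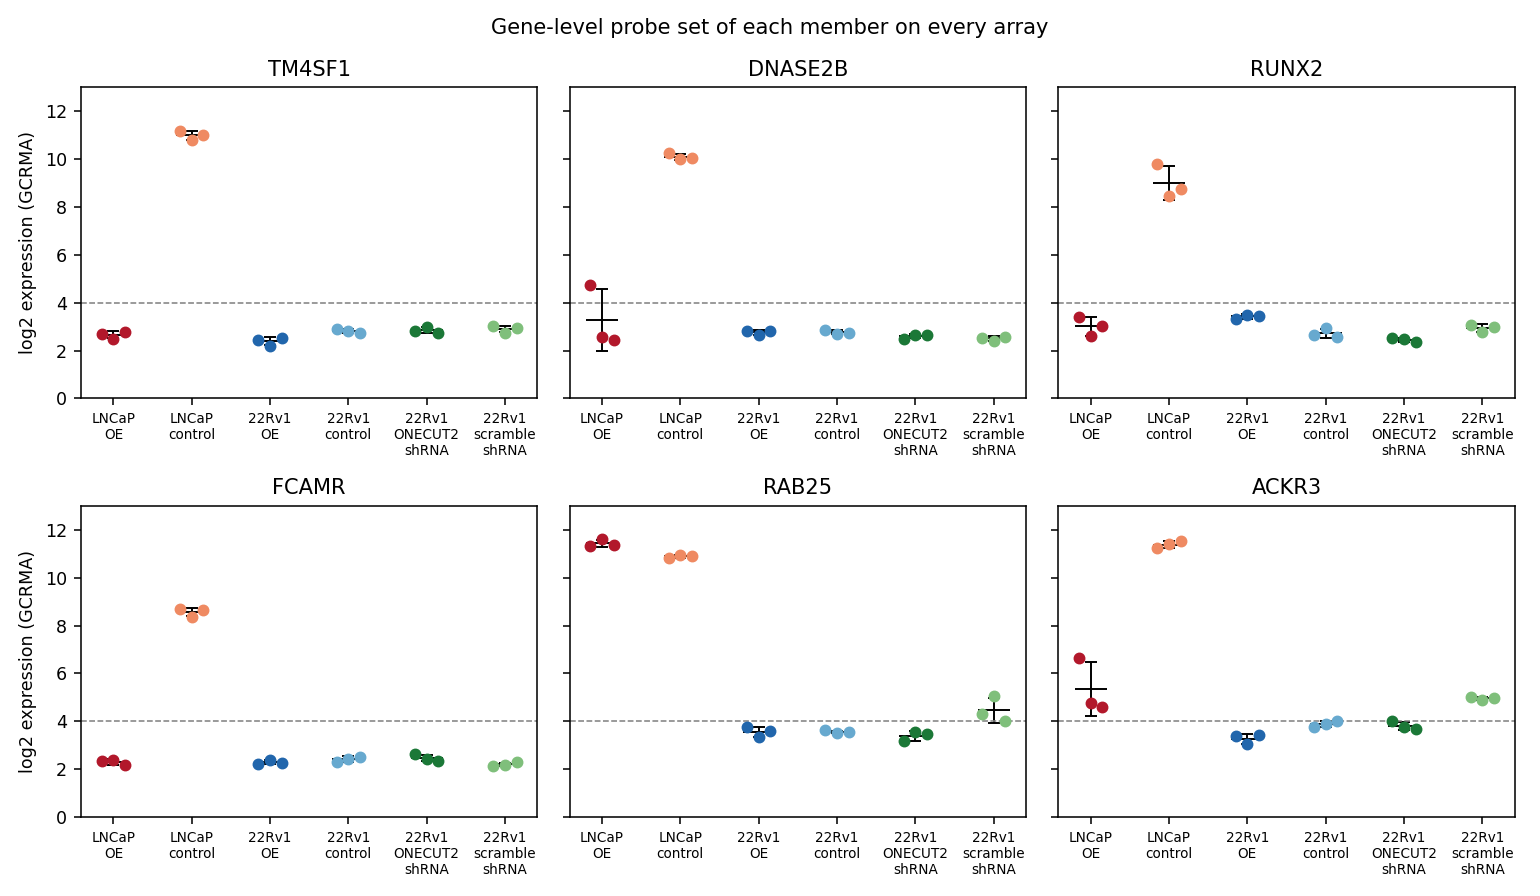
Log2 expression of the gene-level probe set of each gene on all 18 arrays, by group (OE, ONECUT2 overexpression); points are arrays, bars the mean and SD of 3, and the dashed line is the level of 4. LNCaP control stands alone at the top for 5 genes, while RAB25 is over 11 in LNCaP overexpression and at 10.82 to 10.95 in LNCaP control.

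The probe sets of a gene did not all carry this pattern. Of the 17, 9 exceeded 4 on at least 1 array, and the other 8 read between 1.31 and 3.16 on every array. For RUNX2 only 1 probe set of 6 did so, and the other 5 read between 1.82 and 3.16 on all 18 arrays. Every statement about RUNX2 therefore rests on 1 probe set. For TM4SF1, 3 of 5 probe sets were high in LNCaP control, with means of 10.99, 10.1 and 9.31. In LNCaP overexpression the same 3 averaged 2.66, 2.69 and 2.04, so they moved together. ACKR3 had another probe set above 4. It read 2.91, 2.86 and 2.75 in LNCaP overexpression, against 4.78, 4.30 and 4.08 in LNCaP control, with the same direction as the gene-level one. Its remaining probe set read 1.31 to 1.68 throughout. DNASE2B, FCAMR and RAB25 had 1 probe set each. Where probe sets lie on the transcripts is not given in the sources used here.

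**Figure D2:**
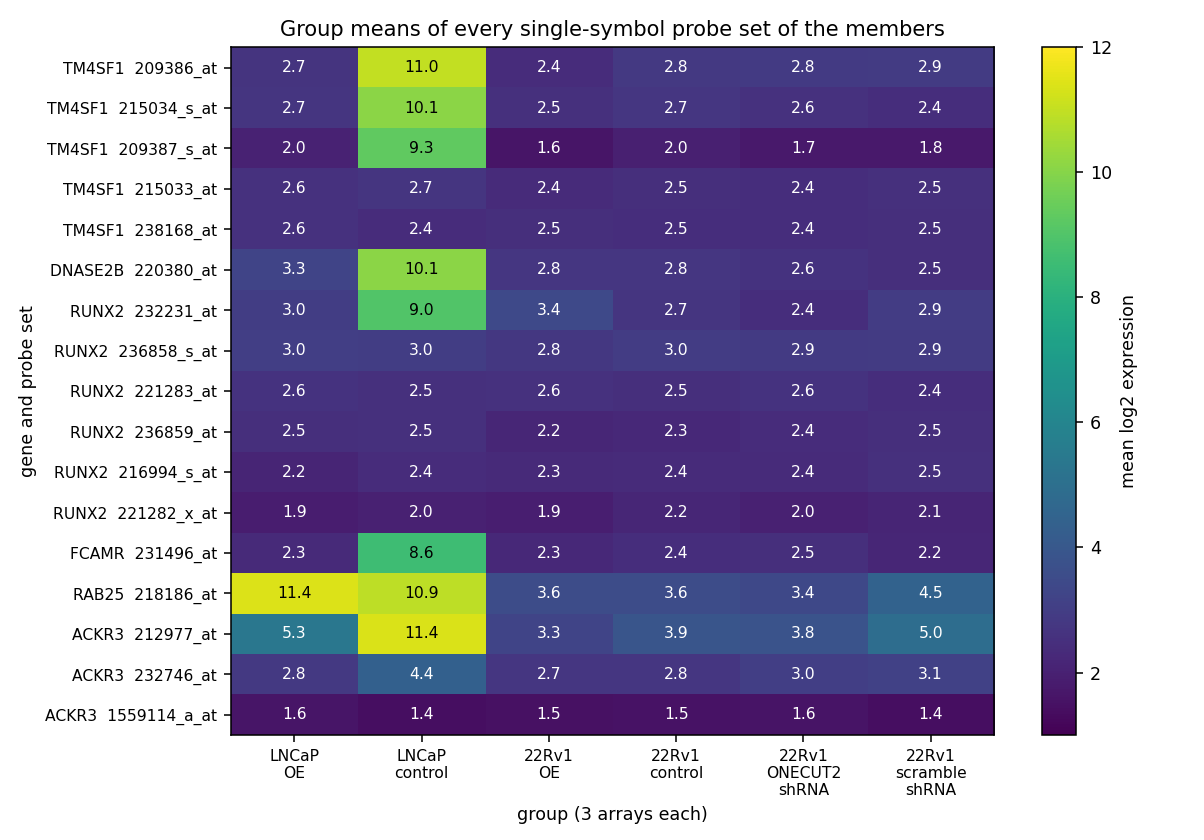
Mean log2 expression (colour and number, 3 arrays each) of all 17 probe sets of the 6 genes in the 6 groups, to be read along a row and not between rows. In LNCaP control 1 of the 6 RUNX2 probe sets is high, and 3 of the 5 TM4SF1 probe sets are.

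With ONECUT2 overexpressed in LNCaP, 5 of the 6 genes were far lower than in LNCaP control, and RAB25 was slightly higher. This comparison shares the LNCaP control arrays with the choice of the genes, and TM4SF1 was known as one of its largest falls, so these values are a description with no test. All 3 overexpression arrays lay below all 3 controls for those 5 genes, as they did for 26.2% of all genes tested. TM4SF1, the surface protein, read 2.71, 2.50 and 2.76 in LNCaP overexpression, against 11.17, 10.78 and 11.02 in LNCaP control. No overexpression array exceeded 4, so the difference was at least 127-fold (fitted -8.33 ± 0.13). FCAMR, the immunoglobulin receptor, read 2.34, 2.39 and 2.17 in LNCaP overexpression, against 8.68, 8.36 and 8.65 in LNCaP control. It was at least 23.7-fold lower (fitted -6.27 ± 0.11). RUNX2 read 3.39, 2.62 and 3.01 in LNCaP overexpression, against 9.79, 8.45 and 8.76 in LNCaP control, at least 32.0-fold lower (fitted -5.99 ± 0.25). For these 3 genes every overexpression array was at background, replicate 1 included.

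DNASE2B and ACKR3 differed among the LNCaP overexpression arrays. DNASE2B, the acid nuclease, read 4.75, 2.59 and 2.46 in LNCaP overexpression, against 10.25, 10.01 and 10.05 in LNCaP control (fitted -6.84 ± 0.39). Its replicate 1 was the one array above 4. Without that array the fitted difference was -7.58, and it was then at least 68.7-fold measured against 4. ACKR3, the chemokine receptor, read 6.66, 4.78 and 4.60 in LNCaP overexpression, against 11.25, 11.39 and 11.51 in LNCaP control (-6.04 ± 0.35, 65.8-fold lower). All 3 overexpression arrays stayed above 4, replicate 1 highest, and without it the difference was -6.70. The SD of the overexpression group was 1.29 for DNASE2B and 1.14 for ACKR3, against 0.14 for TM4SF1 and 0.12 for FCAMR. Replicate 1 is the array that correlated best with the LNCaP controls, and its part in these values was not tested. RAB25, the recycling GTPase, read 11.34, 11.60 and 11.37 in LNCaP overexpression, against 10.82, 10.95 and 10.90 in LNCaP control. All 3 arrays lay above the controls, by 0.54 ± 0.20 on average (1.46-fold). All overexpression arrays lay above all controls for 32% of genes.

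These values can be set beside the other genes with a like baseline. On every control array 25 genes read over 8 in LNCaP and under 4 in 22Rv1, 5 of them members (ACKR3 missed by the 22Rv1 array at 4.03). In LNCaP overexpression 5 of the 25 were under 4 on all 3 arrays, TM4SF1, RUNX2 and FCAMR among them, and 9 were over 8 on all 3, with RAB25. All overexpression arrays lay below all controls for 14 of the 25 and above them for 4. The median difference was -2.47, against 0.09 over all 12159 genes. The LNCaP control arrays in these comparisons also picked the 25 genes as high, which favours lower values elsewhere, and 5 of them are members. These counts and the median are therefore a description only. Genes with this baseline thus lay at both ends in LNCaP overexpression, with values between as well.

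**Figure D3:**
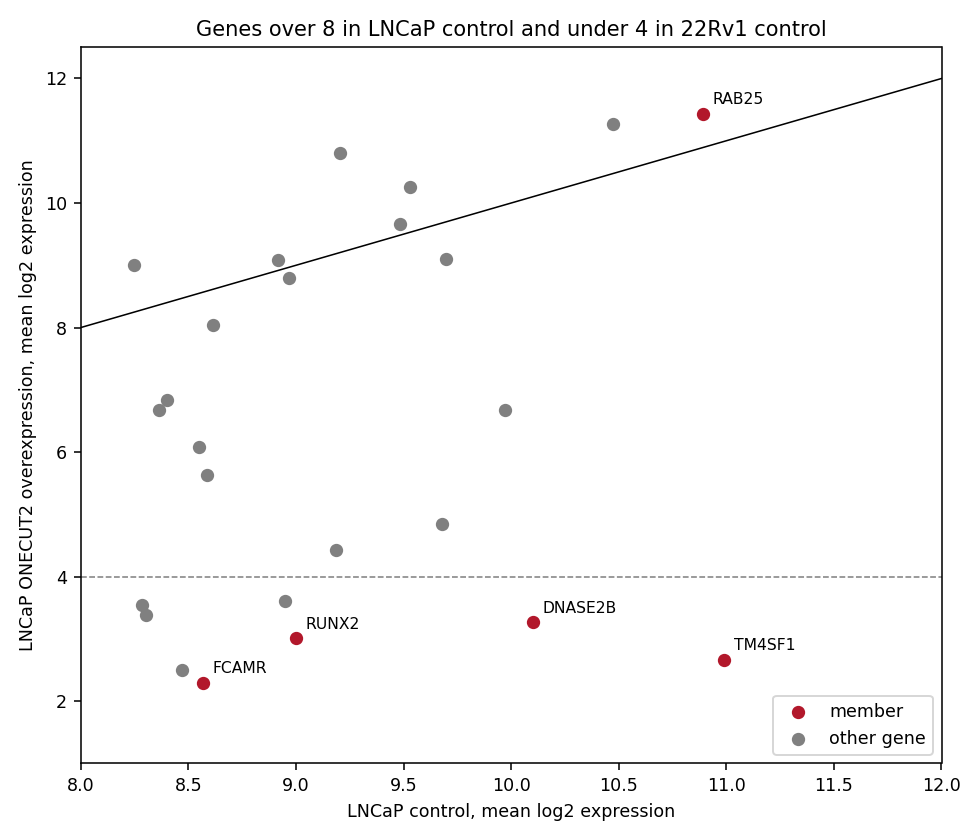
Mean log2 expression of 25 genes that were over 8 on all LNCaP control arrays and under 4 on all 22Rv1 control arrays, in LNCaP overexpression (vertical) against LNCaP control (horizontal); the solid line marks equal levels and the dashed line 4. TM4SF1, DNASE2B, RUNX2 and FCAMR lie under 4 and RAB25 just above the line of equal levels.

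In 22Rv1 the 6 genes were at or near background already in control cells, and none of them reached 4 on any overexpression array. The 22Rv1 control arrays also served in choosing the genes, and TM4SF1, RUNX2, FCAMR and DNASE2B entered the fit through LNCaP arrays alone. The values are therefore a description. The fit over all genes called 1 of the 6 higher and 1 lower, against 60.8% of all 12159 genes (36.5% higher, 24.3% lower), and nothing is read from that count. RUNX2 read 3.32, 3.50 and 3.46 in 22Rv1 overexpression, against 2.64, 2.92 and 2.58 in 22Rv1 control, with no overlap (0.71 ± 0.25). Its call did not hold without overexpression replicate 2 or 3 or control replicate 1 or 3. TM4SF1 read 2.46, 2.21 and 2.50 in 22Rv1 overexpression, against 2.90, 2.82 and 2.72 in 22Rv1 control (-0.42 ± 0.13). Its call did not hold without overexpression replicate 2. Both groups lay under 4 for both genes, so these are differences within the background range, with no fold and no change read from them.

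ACKR3 read 3.37, 3.04 and 3.42 in 22Rv1 overexpression, against 3.75, 3.89 and 4.03 in 22Rv1 control, all below (-0.61 ± 0.35). The fit over 6 groups did not call it, whereas a fit of these 2 groups alone and a fit with array weights did. Its error over 6 groups takes in the SD of 1.14 of LNCaP overexpression, against 0.21 and 0.14 in these groups. DNASE2B, FCAMR and RAB25 overlapped between the groups. Their differences were 0.00 ± 0.39 for DNASE2B, -0.13 ± 0.11 for FCAMR and 0.01 ± 0.20 for RAB25. Beta-actin has control probe sets at both ends of its transcript, and their difference, 3′ end minus 5′ end, grows as RNA or its copies are shortened. It averaged 8.06 ± 0.70 in 22Rv1 overexpression and 4.11 ± 0.41 in 22Rv1 control (SD, n = 3 each). The LNCaP groups averaged less, 2.85 ± 0.56 with overexpression and 2.94 ± 0.25 without. The same measure for GAPDH averaged -0.43 ± 0.13 in 22Rv1 overexpression and -0.70 ± 0.09 in 22Rv1 control (SD, n = 3 each), a smaller difference. The part of RNA quality in the 22Rv1 values was not tested.

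The shRNA arrays were not used in choosing the genes. Between the groups labelled ONECUT2 shRNA and scramble, 2 of the 6 genes were called, both lower, against 29.6% of all genes (16.1% lower, 13.4% higher). TM4SF1, RUNX2, FCAMR and DNASE2B entered the fit through LNCaP arrays alone and lay at background here, so nothing is read from that count. RAB25 read 3.16, 3.56 and 3.45 in the arrays labelled ONECUT2 shRNA, against 4.31, 5.04 and 4.02 in those labelled scramble. It was 1.07 ± 0.20 lower in the former (adjusted p = 7.20e-04), with no overlap. Measured against 4, this is at least 1.38-fold. A limma fit of these 2 groups alone gave a weaker value for RAB25 (adjusted p = 0.0049). The SD of RAB25 was 0.52 in scramble, and without scramble replicate 2 its difference was -0.78. ACKR3 read 4.0, 3.75 and 3.68 in the arrays labelled ONECUT2 shRNA, against 5.00, 4.88 and 4.98 in those labelled scramble (-1.14 ± 0.35, adjusted p = 0.0219). Measured against 4, it was at least 1.94-fold lower, with 1 of the 3 ONECUT2 shRNA arrays just above 4. The ACKR3 call was lost without ONECUT2 shRNA replicate 2 or 3 or scramble replicate 1 or 3 (adjusted p up to 0.0703). It was also lost with probe sets averaged (-0.36, adjusted p = 0.0576). Limma fits of these 2 groups alone (adjusted p = 6.01e-05) and with array weights (adjusted p = 8.44e-08) kept it. The ACKR3 error over 6 groups takes in the SD of 1.14 of LNCaP overexpression, against 0.17 and 0.06 in these groups. For both genes the scramble arrays were the high ones: 22Rv1 control read 3.51 to 3.62 for RAB25 and 3.75 to 4.03 for ACKR3, in the range of the arrays labelled ONECUT2 shRNA or close to it.

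The other 4 genes lay under 4 on all arrays of both shRNA groups. Their differences describe scatter at background, and no change is read from any of them, called or not. RUNX2 read 2.51, 2.49 and 2.34 in the arrays labelled ONECUT2 shRNA, against 3.06, 2.75 and 3.00 in those labelled scramble. The groups did not overlap, and the fit over 6 groups did not call the difference (-0.49 ± 0.25, adjusted p = 0.168), while a fit of the 2 groups alone did (adjusted p = 0.00763). FCAMR read 2.61, 2.44 and 2.35 in the arrays labelled ONECUT2 shRNA, against 2.14, 2.16 and 2.28 in those labelled scramble (0.27 ± 0.11, adjusted p = 0.0853). TM4SF1 and DNASE2B overlapped between the groups (-0.06 ± 0.13 for TM4SF1 and 0.09 ± 0.39 for DNASE2B, adjusted p = 0.80 and 0.885).

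The 2 lines were also compared with ONECUT2 overexpressed in both, on arrays outside the baseline comparison. The low LNCaP overexpression value of TM4SF1 was known, however, when the genes were listed. All 6 genes were chosen as higher in LNCaP than in 22Rv1. A call in that direction between the same lines is therefore no independent support for the baseline difference. The beta-actin 3′ minus 5′ difference averaged 2.85 in LNCaP overexpression and 8.06 in 22Rv1 overexpression, and that of GAPDH -0.68 and -0.43. The part of RNA quality in this comparison was not tested. Of the 6 genes, 2 were higher in LNCaP overexpression than in 22Rv1 overexpression and 4 were not called, against 68.7% of all genes called (28% higher, 40.7% lower). RAB25 read 11.34, 11.60 and 11.37 in LNCaP overexpression, against 3.75, 3.33 and 3.60 in 22Rv1 overexpression. It was at least 173-fold higher (fitted 7.88 ± 0.20, adjusted p = 2.00e-14). ACKR3 read 6.66, 4.78 and 4.60 in LNCaP overexpression, against 3.37, 3.04 and 3.42 in 22Rv1 overexpression. It was at least 2.54-fold higher (fitted 2.07 ± 0.35, adjusted p = 6.81e-05). Without LNCaP overexpression replicate 1 the fitted ACKR3 difference was 1.41 (adjusted p = 4.05e-08). The SD of ACKR3 was 1.14 in LNCaP overexpression and 0.21 in 22Rv1 overexpression, while the fit shares 1 error over 6 groups. A limma fit of these 2 groups alone gave weaker values, adjusted p = 0.0160 for ACKR3 and 9.79e-06 for RAB25.

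The other 4 genes were not called. They entered the fit through LNCaP arrays alone and lay at background in both overexpression groups, 1 DNASE2B array excepted, so their intervals describe scatter at background and are no measure of a difference between the lines. The 95% interval of the difference, LNCaP overexpression minus 22Rv1 overexpression, ran from -0.23 to 0.25 for FCAMR (adjusted p = 0.933). It ran from -0.01 to 0.54 for TM4SF1 (adjusted p = 0.0765) and from -0.96 to 0.12 for RUNX2 (adjusted p = 0.156). For DNASE2B it ran from -0.31 to 1.33 (adjusted p = 0.255), with replicate 1 of LNCaP overexpression at 4.75 and the other two under all 22Rv1 overexpression arrays. Leaving out 1 array changed 3 of these 4 calls. RUNX2 was called lower without LNCaP overexpression replicate 1 (-0.61, adjusted p = 0.0365). TM4SF1 was called higher without replicate 2 (0.35, adjusted p = 0.0399), and DNASE2B higher without replicate 3 (0.91, adjusted p = 0.0449). DNASE2B without replicate 1 was -0.24 (adjusted p = 0.0709).

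**Figure D4:**
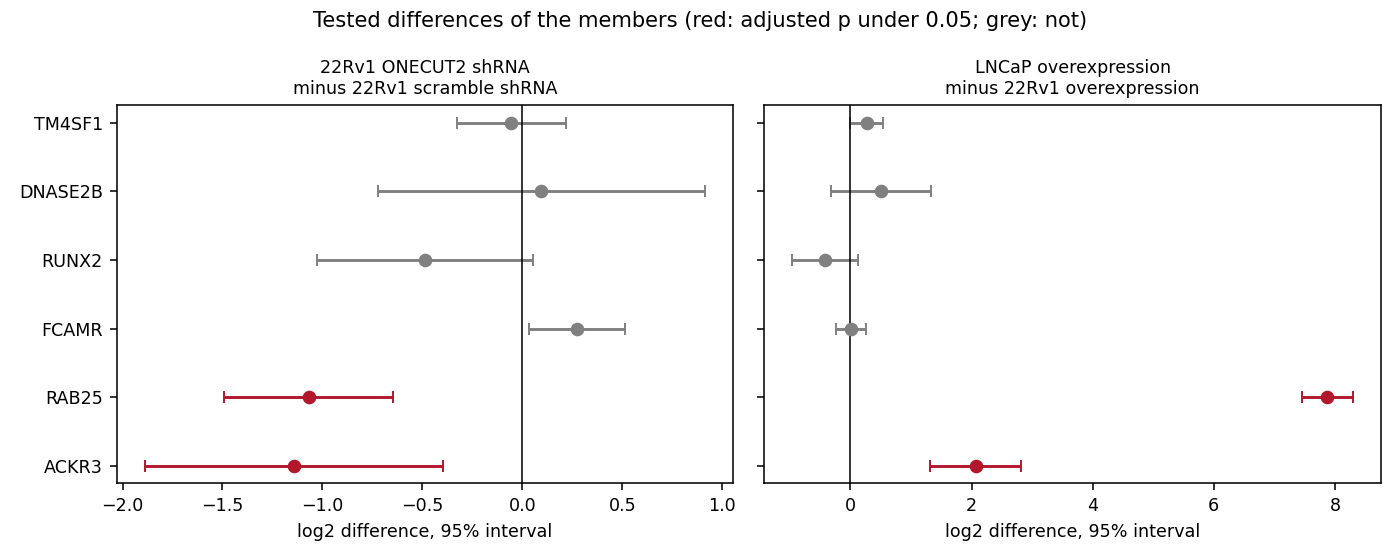
Log2 differences of the 6 genes in the 2 tested comparisons, shRNA and overexpression groups, with 95% intervals of the model (3 arrays a group; red, adjusted p under 0.05; the horizontal scales differ). RAB25 at 7.88 and ACKR3 at 2.07 are the called differences between the overexpression groups, and DNASE2B, RUNX2 and FCAMR cross 0 there, as does TM4SF1 with its lower end at -0.01.

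Across the 6 groups the levels of each gene fell into a simple order. TM4SF1, DNASE2B, RUNX2 and FCAMR had LNCaP control on top, and their other 5 groups lay near one another. The highest of those 15 arrays was 3.03 for TM4SF1, 4.75 for DNASE2B, 3.50 for RUNX2 and 2.61 for FCAMR. RAB25 had LNCaP overexpression and then LNCaP control on top, then scramble, with 22Rv1 control, 22Rv1 overexpression and ONECUT2 shRNA overlapping one another below. ACKR3 had LNCaP control on top, then LNCaP overexpression and scramble, whose arrays overlapped. Below them 22Rv1 control and ONECUT2 shRNA overlapped at about 4, and 22Rv1 overexpression read 3.04 to 3.42, under 4 throughout.

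The genes with the closest profiles over the 18 arrays were found by the root mean square difference, after each gene was centred on its mean and uncharacterised loci and antisense or long intergenic RNAs were left out. For FCAMR the closest was S100A7, the epidermal S100 protein psoriasin (0.22 log2 units), followed by CLEC7A, the beta-glucan receptor dectin-1 (0.34), and RUNX2 (0.45). S100A7 averaged 2.50 in LNCaP overexpression, 8.47 in LNCaP control and 2.30 in 22Rv1 control. It belongs to a family with near copies, so its probe set may read more than 1 gene. For RUNX2 they were S100A7 (0.43), FCAMR and CLEC7A (0.48), and CLEC7A averaged 3.61 in LNCaP overexpression and 8.95 in LNCaP control. For TM4SF1 they were DNASE2B (0.65), FCAMR (0.79) and S100A7 (0.84). For DNASE2B they were FCAMR (0.65), TM4SF1 and ACKR3 (0.66), and for ACKR3 they were DNASE2B, S100A7 (0.86) and TM4SF1 (0.87). RAB25 had other neighbours. They were NLRP2, of the NOD-like receptor family (0.65), C1RL, a relative of complement protease C1r (0.72), and EFS, a Cas-family adaptor (0.88). NLRP2 averaged 10.8 in LNCaP overexpression and 9.20 in LNCaP control, C1RL 9.67 and 9.49, and EFS 8.79 and 8.97, so all 3 were high in both. These are likenesses over groups that share cell lines, and none was tested.

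The families and pathways of the genes were counted in the comparisons of 22Rv1 overexpression, of shRNA and of the overexpression groups, the 6 genes included. In 22Rv1 overexpression they stand beside the raised beta-actin 3′ to 5′ difference of 8.06, against 4.11 in 22Rv1 control and 2.85 in LNCaP overexpression. Its part in either comparison with that group was not tested. Of the 6 TM4SF family genes listed, only TM4SF1 passed the filter on low values, so its own values above are all there is. Of the RUNX factors and partners, 6 of 6 tested were called higher in 22Rv1 overexpression, against 36.5% of all genes (median 0.76, against 0.10 for all genes). RUNX2 was among them only within the background range and entered the fit through LNCaP arrays alone. Nothing is read from its call, so the count rests on the other genes of the list. TLE1, a corepressor, rose by 2.47 ± 0.22 (adjusted p = 7.66e-08). CBFA2T2, a corepressor of the ETO family, rose by 0.97 and CBFB, the DNA-binding partner, by 0.80. In the arrays labelled ONECUT2 shRNA 2 of 6 were lower than in scramble, TLE1 by -1.39 and CBFA2T2 by -0.57, and 0 were higher, against 16.1% and 13.4% of all genes. In LNCaP overexpression against 22Rv1 overexpression 2 were higher, CBFA2T2 (1.17) and TLE1 (1.23), and 2 lower, SMAD5, a signal transducer of bone morphogenetic proteins (-0.76), and CBFB (-0.40), against 28% and 40.7% of all genes. The median was -0.33 in the shRNA comparison and -0.36 between the overexpression groups, against -0.03 and -0.14 for all genes.

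Of the bone and invasion targets of RUNX2, 4 of 12 listed passed the filter. In 22Rv1 overexpression 3 of the 4 rose, against 36.5% of all genes (median 1.02, against 0.10): COL1A1, a collagen chain, by 2.12 ± 0.28 (adjusted p = 6.40e-06), MMP9, a matrix protease, by 1.28, and VEGFA, the endothelial growth factor, by 0.76. COL1A1 is also a stromal marker; of 4 such markers, 3 exceeded 4 on some 22Rv1 array and 1, COL1A1, on LNCaP arrays, and their part was not tested. In the shRNA comparison limma called 0 of 4, and 0 had an unadjusted p under 0.05 (median -0.09). In LNCaP overexpression against 22Rv1 overexpression COL1A1 (1.68) and SNAI2, a zinc-finger repressor, were higher and VEGFA lower (-1.49), with a median of 0.74, so that 3 of 4 were called, against 68.7% of all genes. SNAI2 averaged 4.06 in LNCaP overexpression, against 3.04 in 22Rv1 overexpression, at least 1.04-fold. It lay under 4 on all 22Rv1 arrays and entered the fit through LNCaP arrays alone, so nothing is read from its call or from that count. Of 7 DNases and lysosomal nucleases tested, 3 rose and 2 fell in 22Rv1 overexpression (median 0.00), near the 60.8% of all genes called there. DNASE1L1 fell by 1.55 ± 0.10 (adjusted p = 1.45e-09), DNASE1 rose by 0.60 and DNASE1L2 at least 1.64-fold (4.71 in 22Rv1 overexpression, against 3.61 in 22Rv1 control). In the shRNA comparison 2 were lower, DNASE1 (-1.32) and DNASE1L2 (at least 1.21-fold), with a median of -0.09, near the 29.6% of all genes called. Between the overexpression groups 3 were higher in LNCaP and 1 lower (median 0.37), among them RNASET2, the lysosomal RNase (1.03), DNASE1L1 (0.37) and, lower, DNASE1L2 (at least 1.64-fold). Of all genes 68.7% were called.

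Of 6 immunoglobulin receptor and transport genes tested, 2 rose and 1 fell in 22Rv1 overexpression (median 0.04), against 60.8% of all genes called. FCGRT, the neonatal Fc receptor, rose at least 1.56-fold, MCOLN2, an endolysosomal channel, averaged 4.01 in 22Rv1 overexpression, against 3.72 in 22Rv1 control, at least 1.01-fold, and TFRC, the transferrin receptor, which also binds immunoglobulin A, fell by 0.40. In the shRNA comparison TFRC (0.40) and FCGRT, which lay under 4 in both groups, were called higher (median 0.30), against 29.6% of all genes called. In the comparison of the overexpression groups TFRC (0.47) and PIGR, the polymeric immunoglobulin receptor (0.30), were higher in LNCaP (median 0.11), against 68.7% of all genes called. Of 11 RAB11 recycling genes tested, 5 rose and 3 fell in 22Rv1 overexpression (median 0.01), against 36.5% and 24.3% of all genes. The effectors RAB11FIP1 and RAB11FIP5 rose by 1.45 and 1.01, and RAB3IP, an exchange factor also called Rabin8, fell by 1.22. In the shRNA comparison 2 were higher and 2 lower, against 13.4% and 16.1% of all genes (median -0.23), among them EXOC6 of the exocyst (1.16), RAB11A (-0.45) and RAB25. Between the overexpression groups 4 were higher in LNCaP and 5 lower, against 28% and 40.7% of all genes (median -0.12). There MYO5B, a myosin motor of recycling endosomes, was lower (-2.26) and RAB11FIP1 too (-1.63), while RAB25 was higher.

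Of 6 genes of the CXCL12 axis tested, 1 rose and 1 fell in 22Rv1 overexpression, against 36.5% and 24.3% of all genes (median -0.11). ARRB1, a beta-arrestin, rose by 1.57 ± 0.24 (adjusted p = 3.28e-05), and DPP4, a protease that trims CXCL12, fell by 1.66 ± 0.19 (adjusted p = 1.10e-06). In the shRNA comparison DPP4 was higher (1.60), and ARRB1 (-1.10) and ACKR3 were lower (median -0.32), 3 of 6 called against 29.6% of all genes. Between the overexpression groups 3 were higher in LNCaP and 1 lower, against 28% and 40.7% of all genes (median 0.82). CXCL12, the ligand, averaged 4.73 in LNCaP overexpression, against 3.03 in 22Rv1 overexpression (at least 1.66-fold). CXCR4, the other CXCL12 receptor, is not among those with the smallest 3 p-values, and averaged 4.54 in LNCaP overexpression, against 3.00 in 22Rv1 overexpression. Both were near 4 in LNCaP overexpression, as was ACKR3 on 2 of its 3 arrays in that group. CXCL12 and CXCR4 lay under 4 on all 22Rv1 arrays and entered the fit through LNCaP arrays alone. Their calls could hardly go the other way, so nothing is read from them or from the count of 3 higher.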

How the data were processed

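The authors' deposited values are on a log2 scale and were made with GCRMA, per the submitters' processing notes. That method estimates background from probe sequence, applies quantile normalization and reduces each probe set to 1 value. Its version and the set of arrays it was run on are not stated there. Of 54675 probe sets 41091 had a single gene symbol, updated through the gene identifier for 41037. The members and gene lists were chosen with earlier results of these data known. For each gene the probe set with the highest mean was used. Genes over 4 on at least 3 arrays were tested, 12159 in all and 6 of the 6 members, which can pass through LNCaP control alone.

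One limma model (limma 3.58.1 in R 4.3.3) over 6 group means, with trend and robust moderation, and Benjamini-Hochberg adjustment over all genes gave the comparisons, with calls at adjusted p under 0.05. The comparison of 22Rv1 overexpression with 22Rv1 control, planned as a test, is described without p-values for the members, since its control arrays helped choose them. The named genes were the members, the 3 closest profiles of each, and up to 3 called genes per list and comparison with the smallest adjusted p. The number of arrays limits the precision. Folds against a group averaging under 4 are bounds measured from 4, and fitted log2 differences of such groups rest partly on background values. Alternatives changed the probe set, filter, scaling, moderation, array weights, groups fitted, replicate block and each replicate.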

Additional observations from a re-analysis of the deposited data

Results flagged for a closer look

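For RUNX2 every LNCaP overexpression array lay below every LNCaP control array (-5.99), and every 22Rv1 overexpression array lay above every 22Rv1 control array (0.71). The differences, LNCaP minus 22Rv1, were -6.70 log2 units apart, which was not tested, since it shares the control arrays on which the gene was chosen. The 22Rv1 difference lies within the background range, with all arrays under 4 (means of 3.43 in 22Rv1 overexpression and 2.72 in 22Rv1 control). LNCaP overexpression was under 4 too, so neither the 22Rv1 direction nor the exact size is read as a change. The 22Rv1 call was lost when any of 4 of its 6 arrays was left out, and 1 of the 6 RUNX2 probe sets carries the result.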

How the results depend on the processing

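All 6 genes were higher on every LNCaP control array than on every 22Rv1 control array, and 5 of 6 lower on every LNCaP overexpression array than on every LNCaP control array, under both rescalings, with probe sets averaged and without any 1 array. Averaging all probe sets of a gene made the sizes smaller: for RUNX2 1.08 between the controls and -1.04 in LNCaP overexpression, for TM4SF1 4.60 and -4.60, for ACKR3 3.00 and -2.45. Of the members called in 22Rv1 overexpression, 2 in the model, 1 was called with probe sets averaged, where RUNX2 did not pass the filter, and 0 to 2 without 1 array. The 0 arose without overexpression replicate 2, where limma gave 2 members an unadjusted p under 0.05. In the shRNA comparison 1 was called with probe sets averaged and 4 with array weights, and 1 to 2 without 1 array. RUNX2 and FCAMR, both at background there, were among the 4. Between the overexpression groups 2 to 3 were called under the other settings. Array weights called 6844 genes in the shRNA comparison, against 3593 in the model.

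Signs changed for differences that were not called, and in no case was the turned sign called. In 22Rv1 overexpression RAB25 was -0.017 after quantile normalization and -0.010 with array weights, and DNASE2B was -0.0052 with array weights. Without 1 array RAB25 ranged from -0.091 to 0.12 and DNASE2B from -0.037 to 0.058. TM4SF1 in the shRNA comparison ranged from -0.13 to 0.0074 without 1 array. Between the overexpression groups FCAMR was -0.0095 with arrays centred and -0.035 after quantile normalization, and without 1 array it ranged from -0.035 to 0.076 and DNASE2B from -0.24 to 0.91. The cause was not tested. The labels give the groups the same replicate numbers, but samples of the same number did not deviate together in every pair (correlations from -0.22 to 0.32 in the tested comparisons). With the replicate number as a block 2, 2 and 2 members were called in the 3 comparisons, as without it.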
